A study of Schizosaccharomyces pombe with 8 samples.

Results

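The response to nitric oxide was compared between 2 strains of the fission yeast Schizosaccharomyces pombe, gene by gene, as the change in cells lacking the transcription factor Pap1 minus the change in wild type cells. All 8 arrays of the series enter this comparison, and 2896 genes were compared, out of 5124 protein-coding genes in the reference annotation. The wild type was strain 972h-, and the deletion strain was AV25 (h- pap1::kanMX6), in which the kanMX6 cassette replaces pap1. Cells of both strains were grown in YE medium, moved to PBS and exposed at 30 °C for 15 min to 3 mM detaNONOate, from which nitric oxide is set free in solution. The control cells of each strain received 3 mM detaNONOate that had been left to decompose. The transfer to PBS was shared by all 4 groups, while active donor in treated cells stood against decomposed donor in controls. Each group had 2 biological replicates, each hybridised to 1 Affymetrix Yeast_2 array. The deletion was studied in a single strain, and effects of other differences between the strains cannot be told apart from those of the deletion.

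Pap1 is the fission yeast relative of mammalian AP-1 factors. Its oxidation by peroxiredoxin Tpx1 holds it in the nucleus, where it drives genes for catalase, thioredoxin reductase, sulfiredoxin and efflux pumps. A second branch of the stress response runs through the mitogen-activated kinase Sty1 and the bZIP factors Atf1 and Pcr1, which switch on the core environmental stress genes. Nitric oxide reacts with thiols, with heme and with iron-sulfur clusters, so genes of iron, sulfur and respiratory metabolism were described beside the stress genes.

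Levels are log2 RMA values, a response is the mean of the treated arrays minus the mean of the control arrays of 1 strain, and the strain difference is the deletion's response minus that of the wild type. A positive strain difference can therefore come from a smaller fall, a larger rise or a change of sign. The limma fit over all 8 arrays was used for every test, a gene was called at a Benjamini-Hochberg adjusted p under 0.05, and errors given with ± are limma's moderated standard errors with 2 arrays per group. The number of arrays limits the precision. Signals are relative to the total RNA on each array, so a shift in the make-up of a culture and a change of RNA per cell cannot be told apart.

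The pap1 probe set read 9.90 and 9.93 in wild type controls and 10.11 and 10.09 in treated wild type cells. In the deletion it read 2.33 and 2.35 in controls and 2.14 and 2.20 after treatment, below the background of 3.41 (the 95th percentile of the S. cerevisiae probe sets on the same arrays). The strain labels of the 8 arrays were borne out by this gene, and its own response in the deletion is a difference between background readings. The balance of signal along transcripts moved with the strains and the treatment. The array carries 3′ and 5′ probe sets for 7 control transcripts, and the median of their 3′ minus 5′ differences was 1.39 and 1.29 in wild type controls, 3.36 and 3.34 in treated wild type, 1.65 and 1.64 in deletion controls and 2.56 and 2.73 in the treated deletion. The shift was 2.01 in the wild type and 0.99 in the deletion. It therefore differed between the strains in the same sense as most gene responses described next, and its part in those results was not tested.

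**Figure D1:**
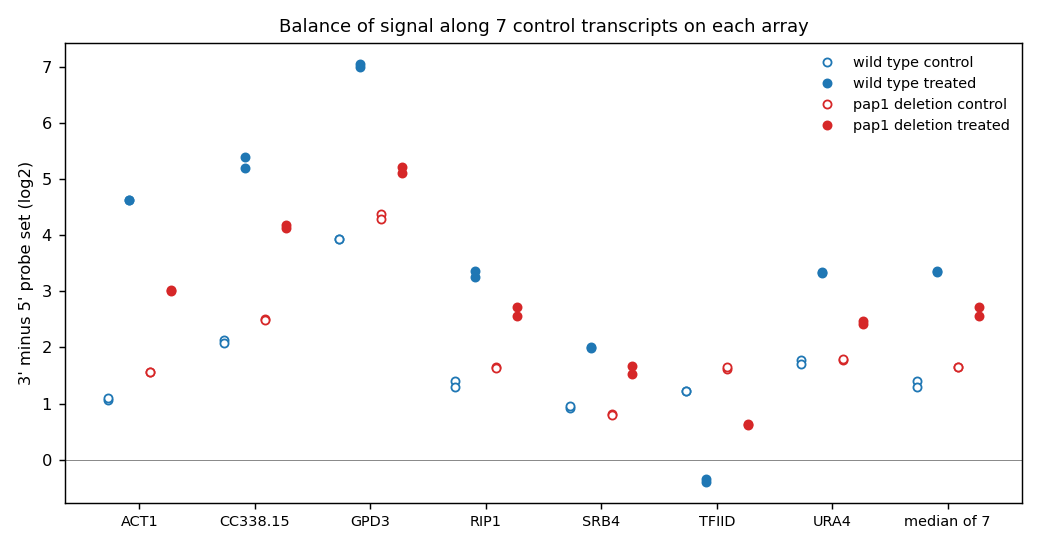
Signal of the 3′ probe set minus the 5′ probe set (log2, vertical axis) for 7 control transcripts and their median (horizontal axis), 1 point per array, open for control and filled for treated, blue for wild type and red for the pap1 deletion. For the median, the treated wild type arrays sit at 3.36 and 3.34 and the treated deletion arrays at 2.56 and 2.73, while the controls of both strains lie between 1.29 and 1.65; TFIID moved the other way in both strains.

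The response to nitric oxide differed between the strains for 1711 genes, 59.1% of those compared, and in most of them the deletion moved less. The strain difference was higher in the deletion for 983 genes (33.9%) and lower for 728 (25.1%). Of the 983 genes, 860 had lower values after treatment in the wild type, and of the 728 genes, 646 had higher values, so both directions mostly describe a smaller response in the deletion. The response was smaller in size in the deletion for 1466 of the 1711 genes (85.7%). Differences of at least 2-fold were found for 190 genes, 173 higher and 17 lower. The split by direction depended on how arrays were scaled: 57.5% of the calls were higher with the deposited values, 47.3% after each array was centred on the median S. pombe gene (845 higher, 940 lower) and 45.4% after quantile normalization (810 higher, 975 lower). In both of those scalings and in every fit that left out 1 array, 1278 of the 1711 calls remained, 757 higher and 521 lower.

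Across genes the 2 responses were correlated, with Pearson's r of 0.79 and Spearman's rho of 0.76 over 2896 genes, which are not independent replicates; the strains share no arrays. The SD of the responses over genes was 0.78 in the wild type and 0.43 in the deletion, which gives a slope of 0.54 by geometric mean regression. The median size of a response was 0.45 in the wild type and 0.24 in the deletion. In the wild type 80.2% of genes passed the test of the response (40.5% higher, 39.7% lower) and in the deletion 62.4% (35.5% higher, 26.9% lower). At least 2-fold falls in the wild type were called for 359 genes, with a median of −1.44, and the same genes had a median response of −0.59 in the deletion. They kept a median of 36.9% of the wild type response on the log2 scale, with quartiles of 24.0% and 52.2%. At least 2-fold rises in the wild type were called for 160 genes, with a median of 1.18 against 0.59 in the deletion, or 46.3% kept (quartiles 38.2% and 60.6%). In the deletion itself 85 genes changed at least 2-fold, 68 downwards and 17 upwards.

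Genes were sorted by which of the 3 tests (wild type response, deletion response, strain difference) they passed. Responses of opposite sign, with all 3 tests passed, were found for 137 genes (4.73%). The wild type response was lost in 537 genes (18.5%), where the deletion's response did not pass, and it was reduced in 832 genes (28.7%), where both strains changed the same way and the deletion by less. The response was enlarged in 58 genes (2.0%) and gained in 130 genes (4.49%), where only the deletion passed the response test and the strain difference passed as well. It was kept in 561 genes (19.4%), which changed the same way in both strains without a called difference. For 17 genes (0.587%) only the strain difference was called, and the remaining 624 genes (21.5%) could not be separated into a class. These shares are the background against which the gene lists below are read.

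**Figure D2:**
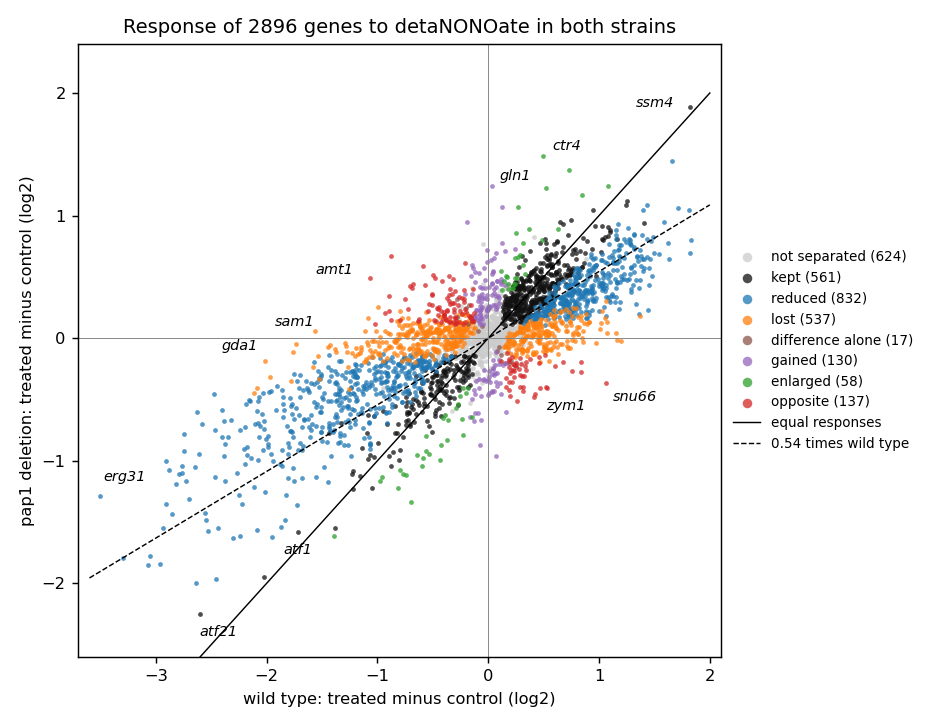
Response of each of 2896 genes in the wild type (horizontal axis, log2) and in the pap1 deletion (vertical axis, log2), 1 point per gene, coloured by response class with the number of genes in each. Most genes lie between the horizontal axis and the solid line of equal responses, around the dashed line at 0.54 times the wild type response; genes of opposite response lie in the upper left and lower right.

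In the genes with opposite responses, both changes were mostly small. For 88 of the 137 the wild type fell and the deletion rose, with median responses of −0.36 and 0.22, and for 49 the wild type rose and the deletion fell, with medians of 0.29 and −0.26. The deletion's response was 0.67 at the most, and tas3 and thi9 were the only 2 genes that moved at least 1.5-fold in both strains. The pap1 gene itself is among the 137 through its background readings. In the fits that left out 1 array, between 79 and 150 genes had opposite responses, and 51 of the 137 had them in all 8 fits. The members given next keep a called strain difference in all of these fits, while the deletion's own small response often does not.

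Among the genes that fell in the wild type and rose in the deletion were transporters and a chromatin factor. The thiamine transporter gene thi9 read 5.87 and 5.92 in wild type controls, 5.42 and 5.18 in treated wild type, 5.91 and 5.84 in deletion controls and 6.43 and 6.51 in the treated deletion. All 4 control arrays lay between both treated groups, and no groups overlapped across the treatment. Its response was −0.59 ± 0.08 in the wild type and 0.59 ± 0.08 in the deletion, a difference of 1.18 ± 0.11 (limma adjusted p = 0.00015). The ammonium transporter gene amt1 read 5.78 and 5.85, then 4.92 and 4.57, in the wild type, and 5.26 and 5.32, then 5.64 and 5.93, in the deletion. Its responses were −1.07 and 0.49 and the difference, 1.56 ± 0.18 (limma adjusted p = 0.00035), was the largest of this class. The deletion controls already lay 0.52 below those of the wild type. Without the first deletion control array the deletion's response of amt1 was 0.46 (limma adjusted p = 0.065), and without the second treated deletion array it was 0.35 (limma adjusted p = 0.082). The gene tas3 encodes a subunit of the RITS complex, which directs heterochromatin at centromeres. It read 4.66 and 4.93 in wild type controls, 4.19 and 3.65 in treated wild type, 4.79 and 4.73 in deletion controls and 5.40 and 5.46 in the treated deletion. The treated groups lay on either side of all controls, and the difference was 1.55 ± 0.24 (limma adjusted p = 0.0012). The deletion's rise of tas3 missed the threshold without the second deletion control (limma adjusted p = 0.054) or the second treated deletion array (limma adjusted p = 0.057). For gpi7, which in S. cerevisiae encodes an enzyme of glycolipid anchor synthesis, the responses were −0.89 and 0.34. The rise of gpi7 in the deletion likewise missed the threshold without the second deletion control (0.24, limma adjusted p = 0.12) or the second treated deletion array (0.27, limma adjusted p = 0.11). The cohesin subunit gene rad21 read 6.28 and 6.21, then 5.51 and 5.62, in the wild type, and 6.24 and 6.18, then 6.60 and 6.70, in the deletion. The controls of both strains overlapped, and the treated arrays fell below them in the wild type and rose above them in the deletion (−0.68 and 0.44, a difference of 1.12 ± 0.09, limma adjusted p = 7e-05).

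Several enzymes of amino acid and nitrogen metabolism shared this pattern. The following were named after their values were seen. The 3 genes of the glycine cleavage system, which breaks down glycine and feeds the folate pool, all had opposite responses: gcv1 −0.48 and 0.49, gcv2 −0.69 and 0.41, and gcv3 −0.63 and 0.15 in the wild type and the deletion. On the arrays gcv1 read 8.66 and 8.72 in wild type controls, 8.27 and 8.15 in treated wild type, 8.76 and 8.66 in deletion controls and 9.11 and 9.28 in the treated deletion. The controls of gcv1 overlapped between strains and the treated groups lay apart on either side. The rise of gcv3 in the deletion missed the threshold without any 1 of the 4 deletion arrays (0.12 to 0.19), while gcv1 and gcv2 kept both calls in all fits. In arginine synthesis, arg3 (ornithine carbamoyltransferase) responded by −0.88 and 0.15, arg12 (argininosuccinate synthase) by −0.46 and 0.25, and arg4 by −0.32 and 0.48. The rise of arg3 in the deletion was not called in 5 of the 8 fits without 1 array, and after quantile normalization arg4 no longer fell in the wild type (−0.07, limma adjusted p = 0.34). A further 2 genes of the pathway, arg1 and arg6, fell by 0.68 and 0.44 in the wild type and had responses of 0.00 and 0.04 in the deletion. Another, arg7 (argininosuccinate lyase), rose in both strains, by 0.24 and 0.41, without a called difference; its wild type rise was not called in 5 of the 8 fits without 1 array. The branched-chain aminotransferase gene eca39 fell by 0.94 in the wild type and rose by 0.21 in the deletion, a rise that was not called without either deletion control or without the second treated deletion array. The pyrimidine gene ura2 responded by −0.75 and 0.32 and the proline permease gene put4 by −0.54 and 0.22, both with calls that held without any 1 array.

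The largest difference with the reverse pattern was that of snu66, for a protein of the splicing tri-snRNP. It read 7.55 and 7.47 in wild type controls, 8.56 and 8.59 in treated wild type, 7.63 and 7.53 in deletion controls and 7.15 and 7.28 in the treated deletion. The treated wild type arrays stood about 1 log2 unit above all controls and the treated deletion arrays below them, with a difference of −1.43 ± 0.09 (limma adjusted p = 3.2e-05). The splicing factor gene slu7 responded by 0.53 and −0.41 (difference −0.94 ± 0.06, limma adjusted p = 4.5e-05), and snu23, another tri-snRNP gene, by 0.84 and −0.20. The translesion polymerase gene rev1 responded by 0.84 and −0.27 and the mating agglutinin gene mam3 by 0.75 and −0.27. For snu23, rev1 and mam3 the fall in the deletion was not called in 2, 3 and 4 of the 8 fits without 1 array. The metallothionein gene zym1, whose product binds zinc, read 9.78 and 9.76, then 10.21 and 10.16, in the wild type and 9.55 and 9.53, then 9.04 and 9.13, in the deletion. It rose by 0.42 and fell by 0.46 (difference −0.88 ± 0.06, limma adjusted p = 5.8e-05) with no overlap between control and treated arrays in either strain. The iron-sulfur assembly gene isa2 rose by 0.61 in the wild type and fell by 0.23 in the deletion. Of the kinase genes upstream of Sty1, wis4 had responses of 0.29 and −0.40, but its place in this class was lost in 7 of the 8 fits without 1 array.

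**Figure D3:**
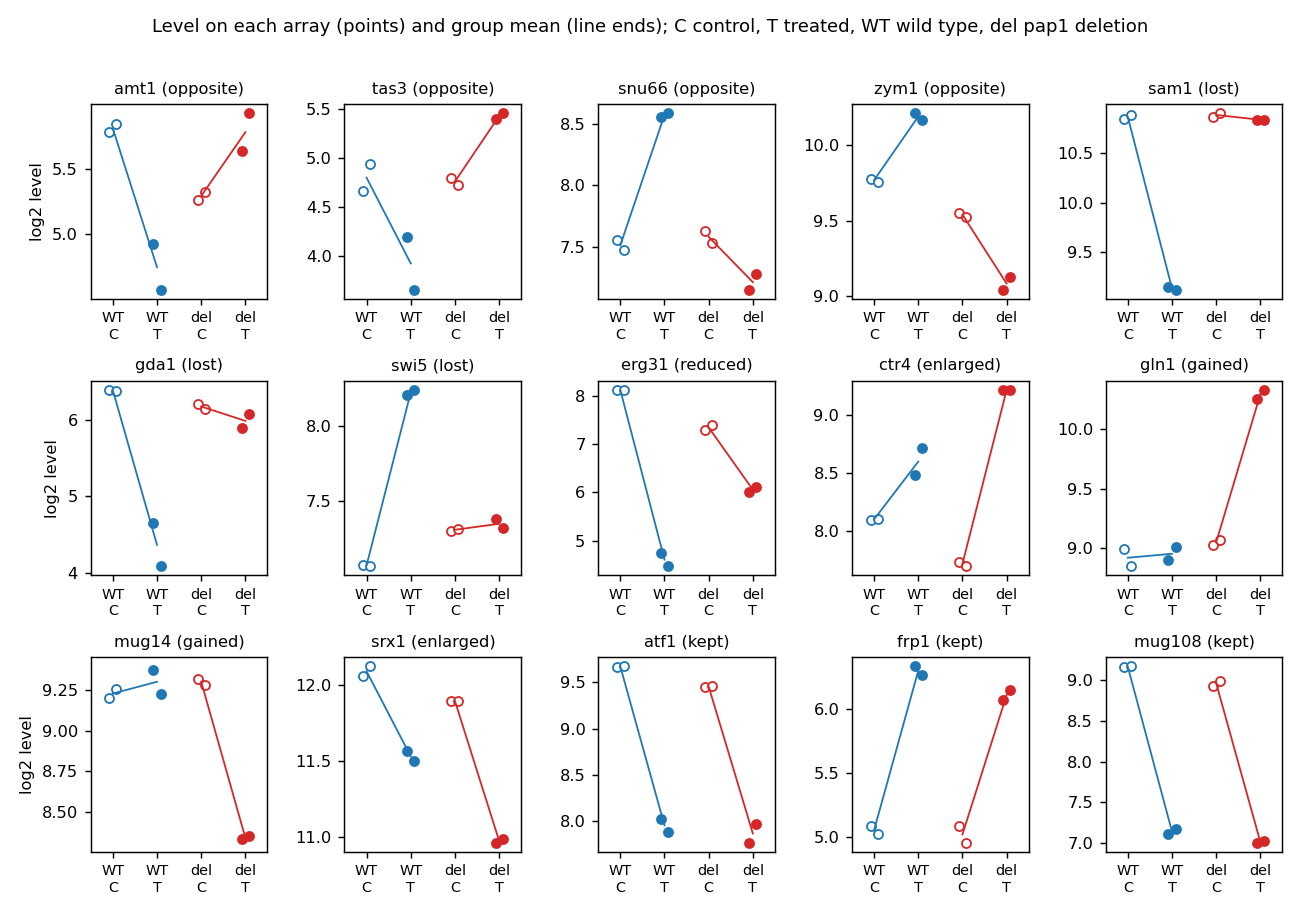
Level of 15 genes on each of the 8 arrays (log2, vertical axis), with wild type in blue, the pap1 deletion in red, controls (C) open and treated (T) filled; lines join the group means and the class of each gene is in brackets. The lines cross or diverge for amt1, tas3, snu66 and zym1, are flat in the deletion for sam1 and swi5, steeper in the deletion for ctr4 and srx1, and parallel for atf1, frp1 and mug108; each panel has its own vertical range.

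The wild type response was lost in 537 genes, 317 that fell in the wild type and 220 that rose. The S-adenosylmethionine synthetase gene sam1 gave the sharpest contrast against its error. It read 10.85 and 10.89 in wild type controls and 9.15 and 9.12 in treated wild type, against 10.87 and 10.91 in deletion controls and 10.84 and 10.84 in the treated deletion. Only the treated wild type arrays stood apart, and the responses were −1.73 ± 0.04 and −0.05 ± 0.04, a difference of 1.69 ± 0.06 (limma adjusted p = 1.4e-05). The nucleolin relative gar2 read 9.86 and 9.82, then 8.41 and 8.38, in the wild type, and 9.89 and 9.86, then 9.80 and 9.81, in the deletion. It fell by 1.45 in the wild type and had a response of −0.07 in the deletion. The poly(A)-binding protein gene pabp fell by 1.38 against −0.09, and the proteasome subunit gene pre3 by 1.15 against −0.09, which became a called fall of 0.12 after quantile normalization. The guanosine diphosphatase gene gda1 fell from 6.39 and 6.38 to 4.65 and 4.09 in the wild type and read 6.20 and 6.14, then 5.89 and 6.07, in the deletion. Its treated wild type arrays differed by 0.56. Without either of them the spread was smaller and the response of gda1 in the deletion, −0.19, was called (limma adjusted p = 0.038), as were those of mug89 (−0.41) and the kinase gene ppk11 (−0.45).

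Among the lost rises, the recombination mediator gene swi5 read 7.08 and 7.07 in wild type controls, 8.21 and 8.24 in treated wild type, 7.30 and 7.32 in deletion controls and 7.38 and 7.32 in the treated deletion. The treated wild type alone stood higher, with responses of 1.15 ± 0.04 and 0.04 ± 0.04 and a difference of −1.11 ± 0.06 (limma adjusted p = 2.3e-05). The mismatch repair gene pms1 responded by 1.17 and −0.02 and the telomere bouquet gene bqt1 by 1.19 and −0.02. The meiotic recombinase gene dmc1 rose by 1.37 in the wild type. Its response in the deletion, 0.18, was called after centring (0.19) and after quantile normalization (0.14), which moves it to the reduced genes.

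Reduced responses formed the largest class, 455 falls and 377 rises, with a median of 42.1% of the wild type response left in the deletion. The sterol C-5 desaturase gene erg31 read 8.11 and 8.12 in wild type controls, 4.75 and 4.47 in treated wild type, 7.29 and 7.40 in deletion controls and 6.0 and 6.11 in the treated deletion. Treated arrays lay below controls in both strains, with responses of −3.51 ± 0.09 and −1.29 ± 0.09, and the deletion controls started 0.78 lower than those of the wild type. The difference of 2.22 ± 0.13 (limma adjusted p = 3e-05) was the largest of all 2896 genes. The RNA helicase gene sum3 read 11.31 and 11.37, then 8.88 and 8.86, in the wild type, and 11.18 and 11.08, then 10.55 and 10.81, in the deletion. It fell by 2.48 and 0.45. The palmitoyltransferase gene pfa3 responded by −2.63 and −0.60, the histone H2B gene htb1 by −2.88 and −1.08, and esc1, for a helix-loop-helix protein, by −2.74 and −0.78. Of the reduced rises, ned8, for a ubiquitin-like modifier, went from 8.34 and 8.39 to 9.69 and 9.76 in the wild type and from 8.66 and 8.56 to 8.83 and 8.79 in the deletion. The smaller rise of ned8 in the deletion, 0.20, was not called without the second deletion control (0.15) or the first treated deletion array (0.18). The gene csm1 rose by 1.82 and 0.69, apc14, for a subunit of the anaphase-promoting complex, by 1.34 and 0.28, and epr1 by 1.44 and 0.23, where the last missed the threshold in 4 of the 8 fits without 1 array and after quantile normalization. The same happened to apc14 without the second deletion control or the second treated deletion array.

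In 58 genes the deletion responded more than the wild type. Copper and iron uptake genes stood at the top. The copper transporter gene ctr4 read 8.10 and 8.11 in wild type controls, 8.48 and 8.71 in treated wild type, 7.74 and 7.70 in deletion controls and 9.21 and 9.21 in the treated deletion. The deletion controls were the lowest and the treated deletion the highest of all arrays, with responses of 0.49 ± 0.07 and 1.49 ± 0.07 and a difference of 0.99 ± 0.10 (limma adjusted p = 0.00019). Its partner subunit gene ctr5, named after its values were seen, rose by 0.12 and 0.54. The wild type rise of ctr5 was not called in 5 of the 8 fits without 1 array. The siderophore transporter gene str1 rose by 0.27 and 1.07 (difference 0.80 ± 0.11, limma adjusted p = 0.0006), where the wild type rise was not called without the first control (0.21) or the first treated array (0.19) of that strain. The acid phosphatase gene pho4 rose by 0.52 and 1.22 and the alcohol dehydrogenase gene adh4, which is known to be repressed by zinc, by 0.72 and 1.37. Enlarged falls were led by mvp1, for a sorting nexin, which went from 9.20 and 9.12 to 8.46 and 8.47 in the wild type and from 9.17 and 9.29 to 7.97 and 7.81 in the deletion. The hexose transporter gene ght3 fell by 0.44 and 0.99, and 2 genes for chromatin remodelling ATPases, snf22 and fft2, by 0.23 and 0.79 and by 0.14 and 0.64. After centring, the wild type falls of snf22 and fft2 were −0.14 and −0.06 and were not called; fft2 also lost its wild type call in 3 of the 8 fits without 1 array.

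Of the 130 gained responses, 85 were rises and 45 falls in the deletion. The glutamine synthetase gene gln1, whose product assimilates ammonium, read 8.99 and 8.85 in wild type controls, 8.90 and 9.01 in treated wild type, 9.03 and 9.07 in deletion controls and 10.25 and 10.33 in the treated deletion. Only the treated deletion arrays stood apart, and the responses were 0.03 ± 0.07 and 1.24 ± 0.07, a difference of 1.21 ± 0.09 (limma adjusted p = 6.4e-05). After quantile normalization the wild type response of gln1 was 0.20 and was called, so that gln1 counted as enlarged. The gene isp7, known for a part in the control of amino acid uptake, responded by −0.19 and 0.95. Without the first treated wild type array, isp7 had a called fall of 0.42 in the wild type and so an opposite response. The NADH kinase gene pos5 responded by 0.13 and 1.07, and its wild type rise was called without the second treated array of that strain (0.27) or after quantile normalization (0.31). Among the gained falls mug14 responded by 0.07 and −0.96, swr1, for the ATPase that deposits histone variant H2A.Z, by −0.08 and −0.87, and ish1, a stress-induced gene for a nuclear envelope protein, by −0.07 and −0.67. After centring and after quantile normalization the wild type response of mug14 was a called rise (0.16 and 0.28), which gives it opposite signs.

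Among the 561 genes that changed alike, 388 rose and 173 fell, and 12 changed at least 2-fold in both strains. For 526 of the 561 the 95% interval of the strain difference lay within 1.5-fold either way. The bZIP factor gene atf1 read 9.67 and 9.67 in wild type controls, 8.03 and 7.88 in treated wild type, 9.45 and 9.46 in deletion controls and 7.77 and 7.97 in the treated deletion. Controls and treated arrays lay apart by more than 1 log2 unit in both strains and the treated arrays of the strains overlapped. The falls were 1.71 ± 0.08 and 1.59 ± 0.08, and the difference of 0.13 had a 95% interval from −0.12 to 0.38 (limma adjusted p = 0.33). The gene mug108 fell by 2.03 and 1.95 (interval −0.07 to 0.22) and the trehalase gene ntp1, named after its values were seen, by 1.22 and 1.09 (interval −0.0024 to 0.27). The bZIP gene atf21 fell by 2.61 and 2.25 (interval −0.07 to 0.78) down to background in the deletion, and without the first treated wild type array its difference of 0.56 was called (limma adjusted p = 0.0038). Of the rises, the ferric reductase gene frp1 read 5.09 and 5.02, then 6.34 and 6.26, in the wild type, and 5.09 and 4.96, then 6.07 and 6.15, in the deletion. The difference of frp1, −0.16 (interval −0.36 to 0.05), was called after centring (−0.24) and after quantile normalization (−0.28). The zinc transporter gene cis4 rose by 1.25 and 1.12, with a called difference of −0.27 without the second treated wild type array. For the dynactin gene ssm4 the fitted rises were 1.82 and 1.88, but its control means of 3.27 and 3.06 lay below background, so the sizes are not measured on both sides.

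The deletion's responses were also set against 0.54 times those of the wild type, which removes the overall reduction. Then 1218 genes (42.1%) departed, 808 higher (27.9%) and 410 lower (14.2%). The largest upward departures were gln1 (1.23), ctr4 (1.22), tas3 (1.15) and amt1 (1.07), and the largest downward ones were mug14 (−1.0), mvp1 (−0.96), snu66 (−0.94) and bfr1 (−0.86). Large kept falls depart downwards on this scale by construction, because kept genes changed alike in both strains. The values were −0.85 for mug108, −0.84 for atf21, −0.79 for tcb2 and −0.65 for atf1. The treated deletion arrays of atf21 read 3.41 and 3.38, at the background, and tcb2 counted as enlarged after centring and after quantile normalization. The gene pcr1, for the partner of Atf1, fell by 2.30 and 1.63, a called difference of 0.67 that turned to −0.38 against the scaled response.

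Known Pap1 targets did not form 1 class. Of 16 measured genes of the list, 8 had a higher and 4 a lower strain difference (7 and 5 after centring, 4 and 5 after quantile normalization), and the median difference was 0.16 beside 0.05 over all genes. Calls made up 75% of the list beside 59.1% over all genes. The glutathione transferase gene gst2 read 8.80 and 8.83 in wild type controls and 7.76 and 7.88 after treatment, against 4.79 and 4.55 and then 4.40 and 4.87 in the deletion. Its level was already 4.15 lower in deletion controls, the arrays of the deletion overlapped, and its fall of 0.99 was lost (−0.03 ± 0.15). The gene obr1 was 1.70 lower in deletion controls and yet fell alike, by 0.72 and 0.61 (interval of the difference −0.03 to 0.25). The catalase gene ctt1 fell by 0.72 and 0.61 as well, from 12.63 and 12.59 to 11.92 and 11.87 in the wild type and from 12.39 and 12.49 to 11.78 and 11.89 in the deletion. The sulfiredoxin gene srx1 fell more in the deletion, from 12.06 and 12.12 to 11.56 and 11.50 in the wild type and from 11.89 and 11.89 to 10.96 and 10.99 in the deletion (difference −0.36 ± 0.06, limma adjusted p = 0.0024). The efflux pump gene bfr1 fell by 1.39 and 1.61, and its difference of −0.22 (limma adjusted p = 0.01) was small but exceeded the spread between arrays. The gene sro1 fell by 1.18 in the wild type and had a response of −0.13 in the deletion. The thioredoxin reductase gene trr1 responded by −0.12 and 0.08. Its called difference of 0.21 became 0.12 after centring and 0.05 after quantile normalization, and neither was called. For caf5 the responses were −0.39 and 0.16, and its called difference of 0.55 became 0.34 after quantile normalization, which was not called.

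Antioxidant enzymes split the same way. Of 21 genes, 11 had a higher and 7 a lower difference (85.7% called beside 59.1% over all genes, and 6 and 7 after quantile normalization). The response was lost in 7 (33.3% beside 18.5% over all genes) and enlarged in 5 (23.8% beside 2.0%). The enlarged falls were those of the superoxide dismutase gene sod1 (−0.38 and −0.83), the glutathione peroxidase gene gpx1 (−0.27 and −0.54) and srx1. The enlarged rises were those of adh4 and of grx4, for a glutaredoxin that senses iron, which rose by 0.85 and 1.17; its difference of 0.32 became 0.16 and missed the threshold after quantile normalization. On the arrays sod1 read 12.18 and 12.14, then 11.79 and 11.78, in the wild type, and 12.21 and 12.17, then 11.34 and 11.39, in the deletion. The controls of sod1 overlapped and the treated deletion arrays were the lowest. The mitochondrial thioredoxin gene trx2, named after its values were seen, fell by 0.36 in the wild type and rose by 0.30 in the deletion, from deletion controls 0.37 below those of the wild type. The peroxiredoxin gene tpx1 fell alike, by 0.19 and 0.27, although the wild type fall was not called after centring (−0.10).

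The stress kinases and transcription factors fell in the wild type with a median of −0.92, and in the deletion with −0.40. Of 45 genes, 22 had a higher and 6 a lower strain difference (62.2% called beside 59.1% over all genes). These became 20 and 12 after centring and 19 and 11 after quantile normalization. The response was reduced in 19 (42.2% beside 28.7% over all genes) and kept in 14 (31.1% beside 19.4%). The kinase gene sty1 went from 9.93 and 9.94 to 8.73 and 8.72 in the wild type and from 9.77 and 9.76 to 9.40 and 9.56 in the deletion (−1.21 and −0.29, difference 0.92 ± 0.08, limma adjusted p = 0.00011). Its treated deletion arrays stayed well above those of the wild type, unlike atf1, whose fall was alike in both strains. The kinase gene sck2 fell by 2.85 and 1.43, and gcn2, for the kinase that senses uncharged tRNA, rose by 1.01 in the wild type and had a response of 0.07 in the deletion. The core environmental stress genes had 9 higher and 7 lower differences among 22 genes (72.7% called, and 7 and 8 after quantile normalization), with median responses of −0.82 and −0.64. Within them the glycerol-3-phosphate dehydrogenase gene gpd1 fell by 1.5 and 0.84 and the glycerol catabolism gene gut2 gained a fall, 0.05 against −0.43; both were named after their values were seen. After centring and quantile normalization gut2 had a called rise in the wild type (0.13 and 0.21). Of 23 chaperone genes, 4 had a higher and 1 a lower difference (21.7% called beside 59.1% over all genes, and 4 and 7 after quantile normalization). Of these, mas5 fell by 1.51 and 0.29 and bip1, the Hsp70 of the endoplasmic reticulum, by 1.62 and 0.44. The gene hsp9 fell by 0.23 and 0.41, a small called difference of −0.18. In the 8 fits without 1 array this difference ranged from −0.19 to −0.16, and hsp9 stayed enlarged in 2 of them. For hsp16 the falls were 0.18 and 0.25, without a called difference.

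Among amino acid biosynthesis genes the strain difference was mostly upwards. Of 39 genes, 23 were higher and 2 lower (21 and 3 after centring, 19 and 5 after quantile normalization), with a median of 0.33. Over all genes 33.9% were higher and 25.1% lower. Against 0.54 times the wild type response 29 of the list were higher (74.4% beside 27.9% over all genes) and none lower (14.2% over all genes). Opposite responses were found in 7 of them (17.9% beside 4.73% over all genes) and gained ones in 5 (12.8% beside 4.49%). The 7 were arg3, arg4, arg12, eca39, his1, leu1 and lys1, which all fell in the wild type and rose in the deletion. The gained rises were gln1, arg5, leu2, gdh1 and lys2, of which arg5, for a carbamoyl-phosphate synthase subunit, responded by −0.08 and 0.53. The serine gene ser2 fell by 1.45 and 0.23. The sulfur and methionine list gave 10 higher and no lower difference among 14 genes (71.4% called beside 59.1% over all genes), with sam1 and met6 (−1.98 and −0.80) at its top. In the nitrogen and autophagy list, 20 of 45 genes were higher and 7 lower (60% called beside 59.1% over all genes). These became 19 and 11 after centring and 17 and 12 after quantile normalization. Gained responses numbered 7 (15.6% beside 4.49%) and opposite ones 4 (8.89% beside 4.73%). The gained ones were gln1, isp7, isp4, gdh1, fnx2 and per1, which rose in the deletion, and atg7, which fell. Both gln1 and gdh1 also count in the amino acid list. Permease genes were among both kinds: put4, amt1 and isp5, an amino acid permease gene, had opposite responses.

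Metal genes moved in both directions. Of 18 genes of iron acquisition and its regulators, 10 had a higher and 1 a lower difference, with median responses of −0.52 and 0.06. Calls made up 61.1% of this list, near the 59.1% over all genes, where 33.9% were higher and 25.1% lower. The iron permease gene fip1 fell by 0.88 in the wild type and had a response of 0.03 in the deletion, and its partner oxidase gene fio1 responded by −0.43 and 0.22, a rise that was not called without the second deletion control (0.20, limma adjusted p = 0.057); both were named after their values were seen. The gene isu1, for the scaffold on which iron-sulfur clusters are built, fell by 2.03 and 0.74, and php4, for the repressor that acts when iron is low, by 1.66 and 0.66. In the zinc and copper list, 8 of 16 genes were higher and 4 lower (75% called). Enlarged responses numbered 4 (25% beside 2.0% over all genes), those of ctr4, ctr5, adh4 and sod1. Of these, adh4 and sod1 also count in the antioxidant list. The zinc transporter gene zrt1 read 10.13 and 10.15 in wild type controls, 9.54 and 9.44 in treated wild type, and between 10.11 and 10.19 on all 4 deletion arrays. Its fall of 0.65 was lost in the deletion, as was that of ccs1 (0.73), the copper chaperone of superoxide dismutase; both were named after their values were seen. Of 29 iron-sulfur and heme proteins, 18 had a higher and 4 a lower difference (75.9% called beside 59.1% over all genes). The Rieske protein gene rip1 responded by −2.08 and −0.51, and tim18 by −2.79 and −1.11.

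**Figure D4:**
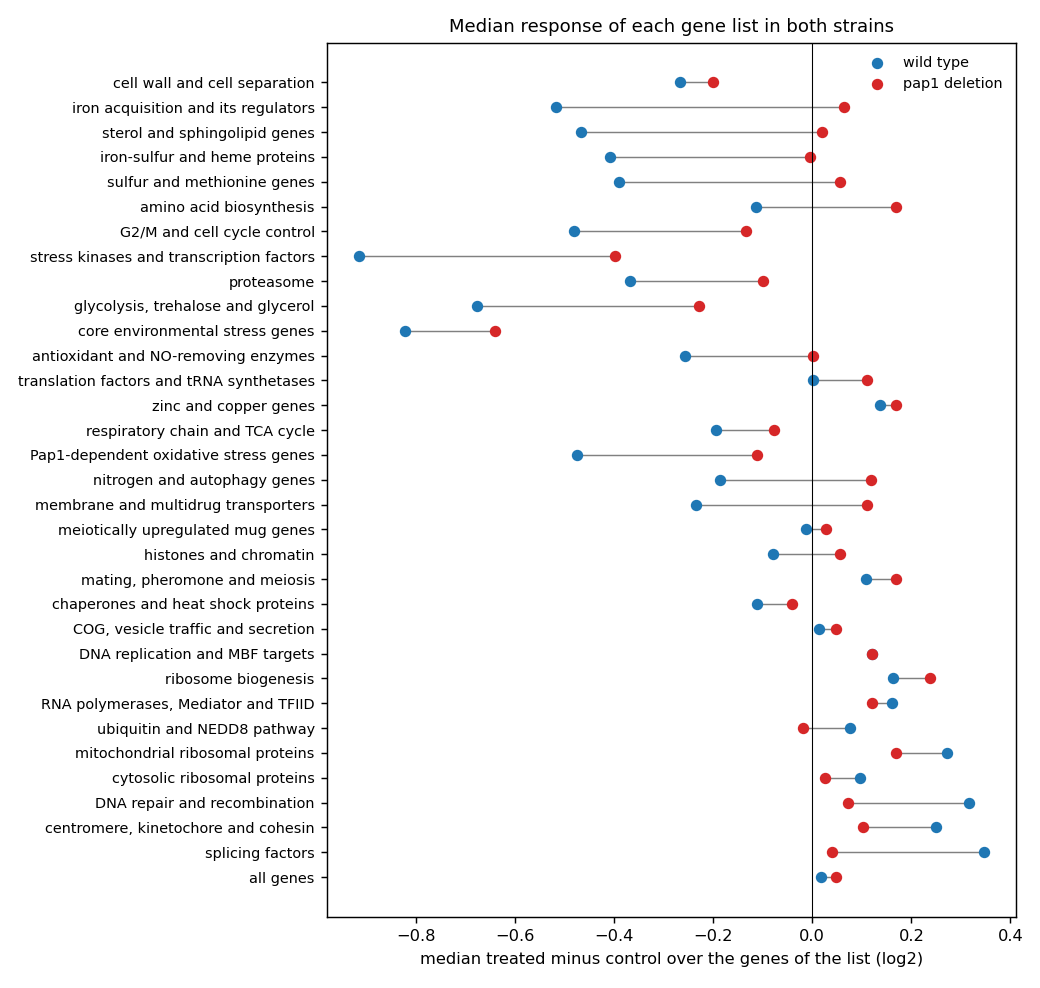
Median response of each gene list (log2, horizontal axis) in the wild type (blue) and the pap1 deletion (red), with lists ordered by the median strain difference of their genes and all genes at the bottom. Medians of the deletion mostly lie nearer to 0 or to the right of those of the wild type; the list of stress kinases and transcription factors moves from −0.92 to −0.40 and splicing factors from 0.35 to 0.04.

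Sterol and sphingolipid genes had 21 higher and no lower differences among 31 genes (20 and 2 after centring, 19 and 2 after quantile normalization), with a median difference of 0.42. The share called was 67.7% beside 59.1% over all genes, where 33.9% were higher and 25.1% lower. Their median response was −0.47 in the wild type and 0.02 in the deletion. Besides erg31, the ceramide hydroxylase gene scs7 fell by 2.38 and 0.68. The C-4 methyl oxidase gene erg25 went from 9.51 and 9.53 to 7.40 and 7.47 in the wild type and from 9.46 and 9.40 to 8.76 and 8.91 in the deletion. The lanosterol demethylase gene erg11 fell by 0.82 in the wild type and had a response of −0.07 in the deletion. The HMG-CoA reductase gene hmg1 had a response of 0.04 in the wild type and rose by 0.55 in the deletion; after quantile normalization its wild type response of 0.25 was called. The last 3 were named after their values were seen.

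Of 34 genes of glycolysis, trehalose and glycerol, 21 were higher and 5 lower (76.5% called beside 59.1% over all genes). The transaldolase gene tal1 read 11.66 and 11.68 in wild type controls, 10.28 and 10.19 in treated wild type, 11.60 and 11.62 in deletion controls and 11.46 and 11.48 in the treated deletion. It fell by 1.43 and 0.14, and the small fall in the deletion was not called in 6 of the 8 fits without 1 array. The hexose transporter gene ght1 fell by 2.39, to a treated wild type mean of 3.36 below background, and by 0.96 in the deletion, in contrast to ght3, whose fall was enlarged. In the respiratory chain and TCA cycle, 21 of 46 genes were higher and 11 lower (69.6% called, and 14 and 16 after quantile normalization). The complex III gene qcr1 fell by 2.59 and 0.70 and the coenzyme Q gene coq10 by 2.91 and 1.01, while the cytochrome oxidase gene cox8 rose by 0.78 in the wild type and had a response of −0.03 in the deletion.

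Among 37 genes of G2/M and cell cycle control, 20 were higher and 3 lower (62.2% called beside 59.1% over all genes, and 19 and 6 after centring). The gene cdc25 responded by −0.46 in the wild type and −0.14 in the deletion, and its difference of 0.31 was not called. The kinase genes mik1 and cdr2, which act on entry into mitosis, fell by 1.33 and 1.23 in the wild type and had responses of −0.19 and −0.12 in the deletion. The treated wild type mean of mik1, 3.37, lay below background. The response of mik1 in the deletion was a called fall that missed the threshold in 5 of the 8 fits without 1 array, and that of cdr2 was called after quantile normalization (−0.20). Among 27 cell wall and separation genes, 15 were higher and 2 lower (14 and 7 after centring, 13 and 5 after quantile normalization), with a median difference of 0.49 that became 0.41 and 0.27 in those scalings. The GTPase gene rho1, which activates glucan synthesis, fell by 2.41 and 0.59. Of 28 proteasome genes, 18 were higher and 1 lower (15 and 4 after quantile normalization), with rpt5, for an ATPase of the base, falling by 2.35 and 0.81. The translation factors and tRNA synthetases had 18 higher and 3 lower differences among 39 genes (12 and 4 after centring, 15 and 6 after quantile normalization). Calls made up 63.0% of the cell wall list, 67.9% of the proteasome list and 53.8% of the translation list, beside 59.1% over all genes.

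Of 76 splicing factors, 42 were lower and 11 higher (46 and 9 after centring, 45 and 7 after quantile normalization), with median responses of 0.35 and 0.04 and a median difference of −0.30. The share called was 69.7% beside 59.1% over all genes. Against 0.54 times the wild type response 22 were lower (28.9% beside 14.2% over all genes). Next to slu7, cwf12 rose by 1.36 and 0.41, while the core snRNP protein gene smb1 went the other way, falling by 1.91 and 0.39. Gained falls were seen for 6 of them, such as cdc5 (−0.13 and −0.68) and cwf16 (−0.12 and −0.61). Of 75 DNA repair and recombination genes, 33 were lower and 17 higher (38 and 14 after centring, 39 and 12 after quantile normalization). Of 58 centromere, kinetochore and cohesin genes, 27 were lower and 12 higher (30 and 11 after centring, 32 and 9 after quantile normalization). The median differences were −0.19 and −0.21. Calls made up 66.7% and 67.2% of these lists beside 59.1% over all genes (33.9% higher, 25.1% lower). In these lists swi5, pms1, dmc1 and csm1 had lost or reduced rises, while rad21, dad3 (−1.97 and −0.31) and cnd2 (−1.08 and 0.16) were among the genes with upward differences. The fall of dad3 in the deletion was called without either treated wild type array, as was the rise of cnd2. The treated wild type mean of dad3, 3.0, lay below background.

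Of 119 cytosolic ribosomal protein genes, 24 were lower and 7 higher (26.1% called beside 59.1% over all genes), and 77 were not separated into a class. After centring 57 were lower and 3 higher, and after quantile normalization 23 and 11. Many are pairs of near-identical genes, whose probe sets may share signal. Mitochondrial ribosomal protein genes were called in 72.9% of 48 genes (59.1% over all genes), 19 lower and 16 higher (21 and 11 after centring, 24 and 12 after quantile normalization). They held the large differences of img1 (−2.15 and −0.52) and mrpl44 (1.55 and 0.69). Ribosome biogenesis genes had 14 higher and 9 lower differences among 42, which became 11 and 14 after centring and 12 and 19 after quantile normalization. Vesicle traffic genes had 46 higher and 36 lower among 128 (38 and 46 after centring, 38 and 51 after quantile normalization), from syb1, a vesicle fusion protein gene that fell by 2.75 and 0.92, to cog5, a Golgi tethering gene that rose by 1.81 and 1.05. The share called was 54.8% for ribosome biogenesis and 64.1% for vesicle traffic, beside 59.1% over all genes.

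**Figure D5:**
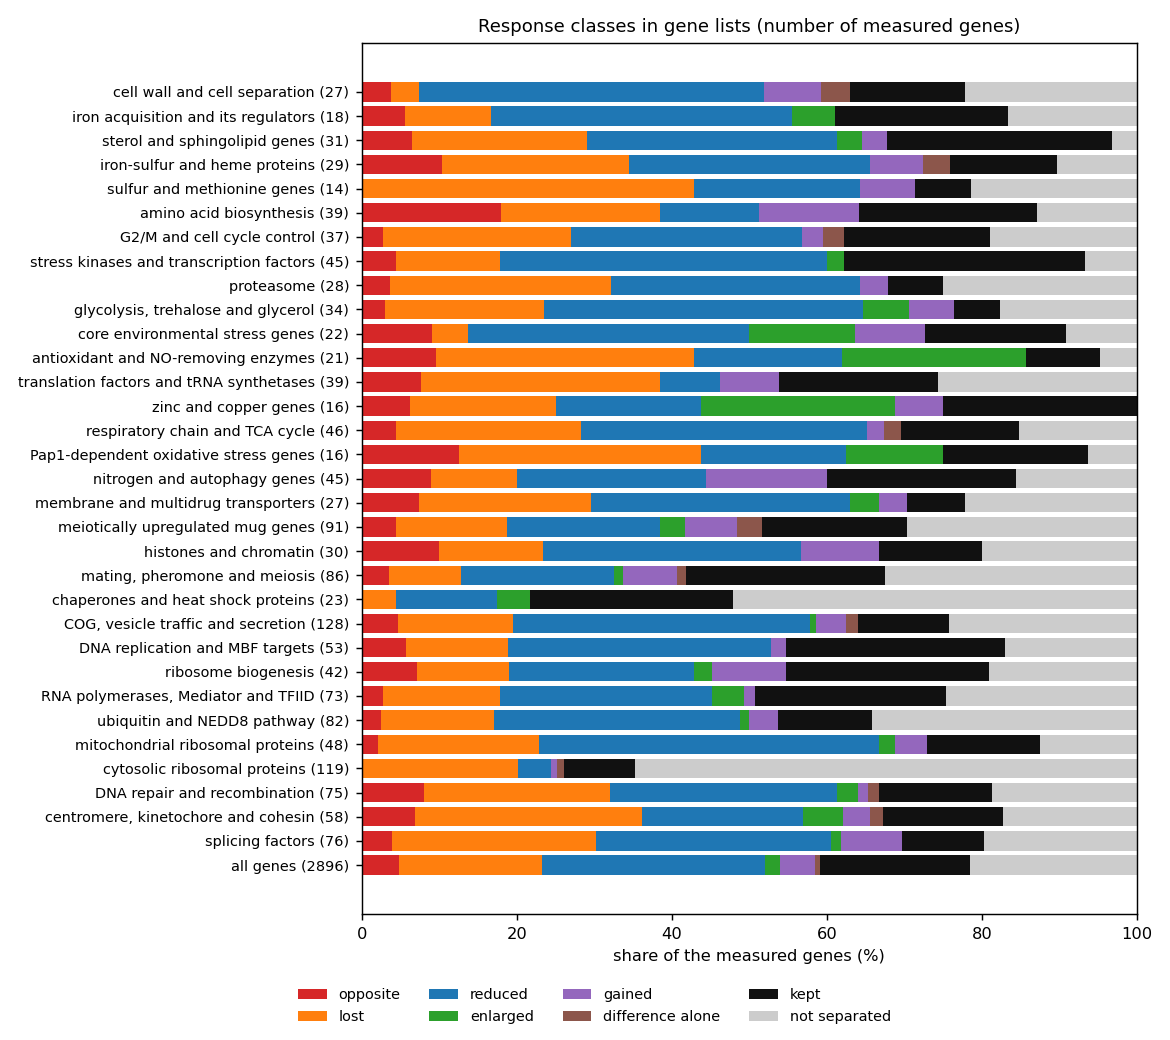
Share of the measured genes of each list (horizontal axis, percent) in each response class, with lists ordered by median strain difference, the number of genes in brackets and all genes at the bottom. Opposite responses take 17.9% of the amino acid list, enlarged ones 23.8% of the antioxidant list, and genes not separated into a class make up most of the cytosolic ribosomal protein list.

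The remaining 7 lists held both directions. Over all genes 33.9% were higher and 25.1% lower. Histone and chromatin genes had 11 higher and 9 lower among 30 (9 and 10 after quantile normalization), RNA polymerase, Mediator and TFIID genes 17 and 20 among 73 (13 and 30 after centring, 12 and 34 after quantile normalization), DNA replication genes 15 and 14 among 53 (14 and 20 after centring), and ubiquitin and NEDD8 genes 22 and 22 among 82 (19 and 31 after centring, 19 and 33 after quantile normalization). Membrane transporters had 13 and 6 among 27 (13 and 9 after centring, 11 and 9 after quantile normalization). Mating and meiosis genes had 21 and 15 among 86 (16 and 25 after quantile normalization). The mug genes, known for their rise in meiosis, had 24 and 23 among 91 (19 and 26 after centring). In the order given, calls made up 66.7%, 50.7%, 54.7%, 53.7%, 70.4%, 41.9% and 51.6% of these lists, beside 59.1% over all genes. Within the mating list ste11, for the master regulator of sexual development, responded by −0.15 in the wild type, which was not called, and rose by 0.50 in the deletion.

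The share of called differences varied with level and with gene length. When genes were ordered by mean level into 5 bins of 579 or 580 genes, 48.6% were called in the lowest bin, 67.5% in the next to highest and 54.2% in the highest. In 5 bins by gene length, the median difference was −0.10 in the shortest genes, 0.15, 0.19 and 0.10 in the middle bins and −0.0019 in the longest. The shortest bin had 105 higher and 207 lower differences and the middle bin 259 and 108. The 3′ to 5′ balance of the control transcripts shifted by 2.01 in the wild type and 0.99 in the deletion beside these values, and its part in them was not tested.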

How the data were processed

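RMA, named without a version by the submitters' processing notes, is how the authors obtained the deposited log2 values, 1 for each probe set; no further scaling was applied. Of 10928 probe sets on the array, 2914 are annotated with a single S. pombe gene, 2601 belong to S. cerevisiae, 20 name several genes, 5390 carry no gene name and 3 lower-case names were not matched. The probe set of highest overall mean stood for each of the 14 genes that had several. Of the 2896 genes compared, 2812 had a mean above the background of 3.41; 10 lie on probe sets shared between genes by design. Symbols were updated for 113 genes. The linear model of limma 3.58.1 (R 4.3.3) had a mean for each group, no trend in eBayes, 4 residual and 3.07 prior degrees of freedom, and p-values were adjusted by Benjamini-Hochberg over all 2896 genes.

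In simulated data with 200 changed genes, the test of the strain difference recovered 31.3% of changes of 0.3, 83.6% of 0.6 and 97.0% of 1 on the log2 scale, and called 5 unchanged genes. The members, the 32 gene lists and the alternatives were chosen with earlier results of these data known, some list members were dropped for an uncertain identity, and no list was tested. Some genes belong to several lists, so the shares of different lists are not independent. Genes to be named included pap1 and 21 further stress, metal and cell cycle genes fixed by name. They also included the largest differences in each class: 5 each way for opposite, 4 for the others, and for kept genes the largest smaller response. Up to 2 each way per list were added, and both kinds came from genes above background in both strains. Not all of these genes are given. Others are said to be named after their values were seen, as are all further list members given only by class. Alternatives were centring, quantile normalization, dropping genes below background, eBayes with trend, means of all probe sets, a 1.5-fold minimum, replicate blocks, scaled wild type responses and leaving out each array. Replicates are the submitters' biological replicates. No genome or sequence table was used, and promoter motifs were not analysed here.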

Additional observations from a re-analysis of the deposited data

Results flagged for a closer look

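The strain difference is itself the comparison of this report, and all 1711 genes that passed its test have responses that differed between the strains. The named genes below are those whose response was called in both strains with opposite signs, given as the deletion's response minus that of the wild type (log2).

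Higher in the deletion were amt1 (1.56), tas3 (1.55), gpi7 (1.24), thi9 (1.18), eca39 (1.14), rad21 (1.12), gcv2 (1.10), ura2 (1.07), arg3 (1.02), gcv1 (0.97), arg4 (0.80), gcv3 (0.78), put4 (0.77), arg12 (0.71), trx2 (0.66), fio1 (0.65), the pyridoxal reductase gene plr1 (0.65), isp5 (0.60), the glutathione reductase gene pgr1 (0.33) and hba1 (0.33), for a protein of nuclear export. Lower in the deletion were snu66 (−1.43), rev1 (−1.11), snu23 (−1.04), mam3 (−1.02), slu7 (−0.94), zym1 (−0.88), the condensin gene cut14 (−0.87), isa2 (−0.84) and wis4 (−0.69). The level of plr1 was also 2.50 lower in deletion controls than in wild type controls. For pgr1 and hba1 the responses were −0.16 and 0.17, and −0.16 and 0.18; centring took the wild type fall of both below the threshold (−0.08 and −0.07), and after quantile normalization the difference of pgr1 was 0.16 and was not called. For cut14 the fall in the deletion, −0.20, was −0.19 after centring and was not called.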

How the results depend on the processing

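The replicate numbers are taken as names: samples with the same number did not deviate together (correlations of deviations from the group means between −0.26 and 0.06 over 6 pairs of groups). With the replicate block 1663 genes were called (955 higher, 708 lower), and with a block within strain 1556 (910 and 646). No called strain difference was called in the opposite direction under centring, quantile normalization, the background filter or the trended eBayes fit. The same held for the mean of all probe sets and for either block. Among the named genes no called difference changed sign in the 8 fits without 1 array. Requiring a 1.5-fold difference left 684 genes, 495 higher and 189 lower. With the same minimum on each response, 428 of them counted as lost, 148 as reduced, 85 as difference alone, 19 as gained, 2 as opposite and 2 as enlarged. Lost then includes genes whose called response in the deletion was under 1.5-fold, and 170 of the 428 were lost without the minimum. Outside the 684 genes, 189 were kept under the same minimum on both responses. Without 1 array the opposite genes numbered 79 to 150 and the enlarged genes 32 to 63; the low counts of opposite genes came without either deletion control (83 and 79) or the second treated deletion array (91), those of enlarged genes without either wild type control (35 and 32) or the first deletion control (38). Against 0.54 times the wild type response the lower calls fell to 410, and classes were not run because they rest on the plain difference. By construction, that setting turned differences of kept and reduced genes: cis4 0.44, frp1 0.41, atf21 −0.84, mug108 −0.85, atf1 −0.65, rds1 −0.23, grx3 0.10, abc3 0.13, gdh2 0.071, his5 0.25, chs2 0.044, rrp41 0.0077, tbp1 −0.11, uvi15 −0.0034, cog5 0.064, tif223 0.10, ctt1 −0.22, obr1 −0.22, pcr1 −0.38, ntp1 −0.42, gpd1 −0.024, cta3 −0.52 and gst3 −0.49. With 2 arrays a group, most differences of 0.3 were missed in simulated data with 200 changed genes. In the measured data 1711 genes were called, which makes the adjusted threshold less strict, so that share does not carry over. Genes near background carry less signal.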
